A study of Homo sapiens with 6 samples.

Results

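Mitochondrial ribosomal proteins are the protein components of the ribosome inside mitochondria. The genes examined here were those whose symbol is MRPL or MRPS followed by a number, with or without a letter, without pseudogenes or antisense transcripts. In all, 76 of the 19361 rows of the expression table met this rule, and 75 of them were tested. The mitochondrial ribosome translates the few messages encoded by mitochondrial DNA, which specify subunits of the respiratory chain and of ATP synthase. All of its proteins are encoded in the nucleus, made in the cytosol and imported, and they assemble with mitochondrial ribosomal RNA into a large subunit, which forms peptide bonds, and a small subunit, which decodes the message. Many descend from bacterial ribosomal proteins, and others were gained by mitochondria.

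The RNA hybridised to 6 Affymetrix expression arrays came from UMUC-14 cells, a human line established from bladder cancer. Cells of the siFGFR3 group received an siRNA against the growth factor receptor gene FGFR3 for 40 h, a different one on each of the 3 arrays (siFGFR3#35, siFGFR3#36 and siFGFR3#3). Cells of the lipofectamine group, also 3 arrays, received the transfection reagent LipofectaminRNAimax, with no siRNA named. No non-targeting siRNA is named in the labels, so the presence of any siRNA and the loss of FGFR3 cannot be told apart. A single line was used, and the labels leave unsaid whether each array had a culture of its own. The p-values therefore measure only the spread between these arrays. Among the lipofectamine arrays this spread may be technical. Among the siFGFR3 arrays it also holds any difference between the siRNAs, which cannot be told apart from the spread between arrays.

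Levels are log2 values, so a difference of 1 is a 2-fold change, and ± stands for the SD over 3 arrays per group. FGFR3 was at 7.47, 7.14 and 8.45 in the siFGFR3#35, siFGFR3#36 and siFGFR3#3 arrays, against 8.70, 8.75 and 8.74 in the lipofectamine arrays. It therefore lay below every lipofectamine array with each siRNA, at 41.7%, 33.3% and 82.2% of the mean lipofectamine level. The fall of 1.04 (SE 0.30) had an adjusted p of 0.0271 in limma, and it did not pass without any 1 lipofectamine array or without siFGFR3#35 (adjusted p = 0.0705 to 0.0814). Of 5 epithelial and urothelial markers with a row, EPCAM fell (−0.51, adjusted p = 0.00141), KRT19 (0.27, adjusted p = 0.00444) and GATA3 (0.79, adjusted p = 0.000797) rose, and KRT7 (0.03) and PPARG (0.06) did not pass. Their mean levels were 9.61 to 13.18 in siFGFR3 cells and 8.82 to 12.91 in lipofectamine cells. Of 9 markers of leukocytes, endothelium and fibroblasts, 6 were dim and not tested, PTPRC, PECAM1, CDH5, COL1A2, COL3A1 and DCN. CD3D averaged 4.39 in siFGFR3 cells and 4.86 in lipofectamine cells and fell (−0.47, adjusted p = 0.00804), while CD14 (−0.21, adjusted p = 0.321) and VWF (−0.25, adjusted p = 0.0595) did not pass, and the part of these markers in the results below was not tested. Arrays of siFGFR3 correlated with each other at r = 0.985 to 0.991 across the tested genes and lipofectamine arrays at 0.998, and genes are not independent replicates. The RNA came from whole cultures, so a change in every cell and a change in the share of cells in some state cannot be told apart.

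The first comparison asked which mitochondrial ribosomal protein genes differed between siFGFR3 and lipofectamine cells. Of the 75 tested members, 59 were lower in siFGFR3 cells, 0 were higher and 16 did not pass, at an adjusted p under 0.05 in limma. At an unadjusted p under 0.05, also 0 were higher. Over all 13552 rows tested, 24.6% were lower and 20.6% higher, or 3329 and 2789 rows. With each array centred on its own median these counts were 4285 and 2312, and 61 members were lower and 0 higher. The median change of the members was −0.37 on the log2 scale, which is 77.4% of the lipofectamine level, against a median of −0.04 over all rows. In 63 members all 3 siFGFR3 arrays lay below all 3 lipofectamine arrays, and in 0 all 3 lay above; the same held for 33.9% and 26.9% of all rows. The members that passed fell by 1.15-fold to 1.88-fold, so none reached a 2-fold change. Among tested rows with a mean level between 8.35 and 9.80, the range of the middle 50% of the members, 33.6% were lower and 22.3% higher.

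**Figure D1:**
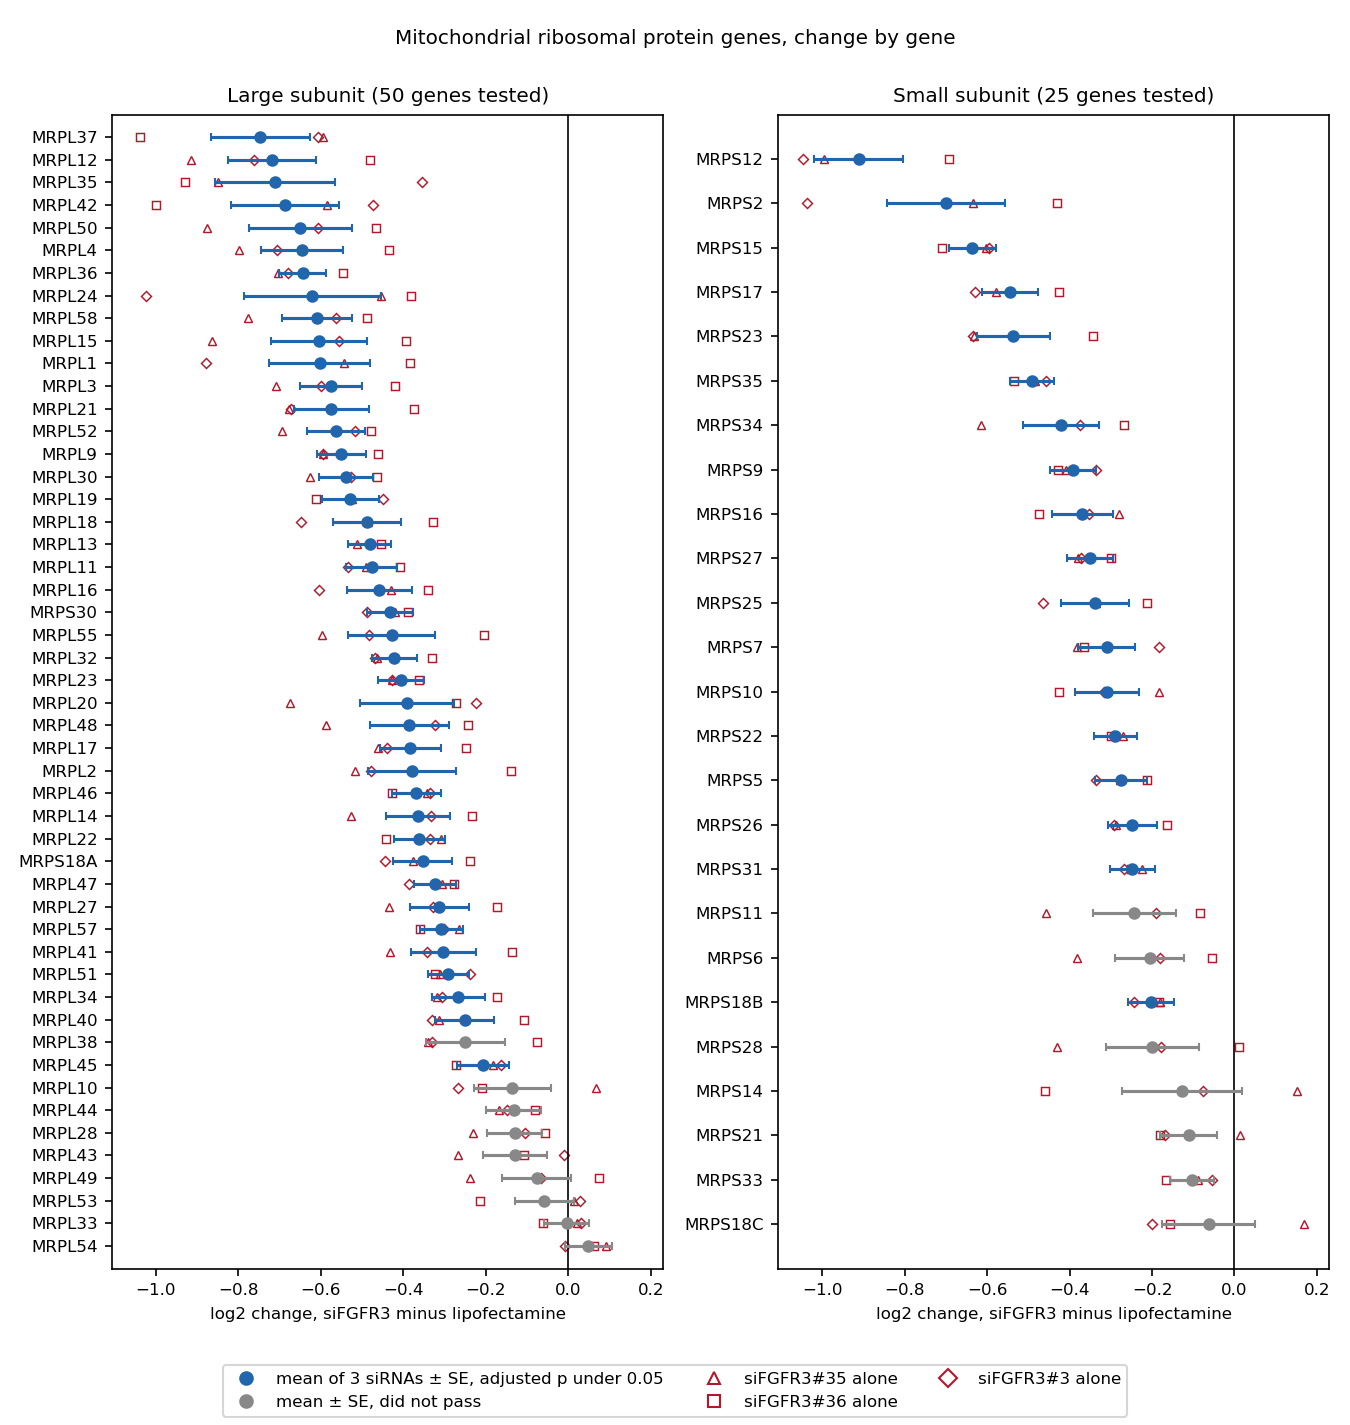
Change of each tested member on the log2 scale, siFGFR3 minus lipofectamine, with the large subunit on the left and the small subunit on the right. Filled circles are the mean of the 3 siRNAs with its SE, blue where the adjusted p was under 0.05 and grey where it was not, and open symbols are single siRNAs. Of the 75 members, 59 are blue and lie left of 0, and MRPL54 alone has a mean right of 0.

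**Figure D2:**
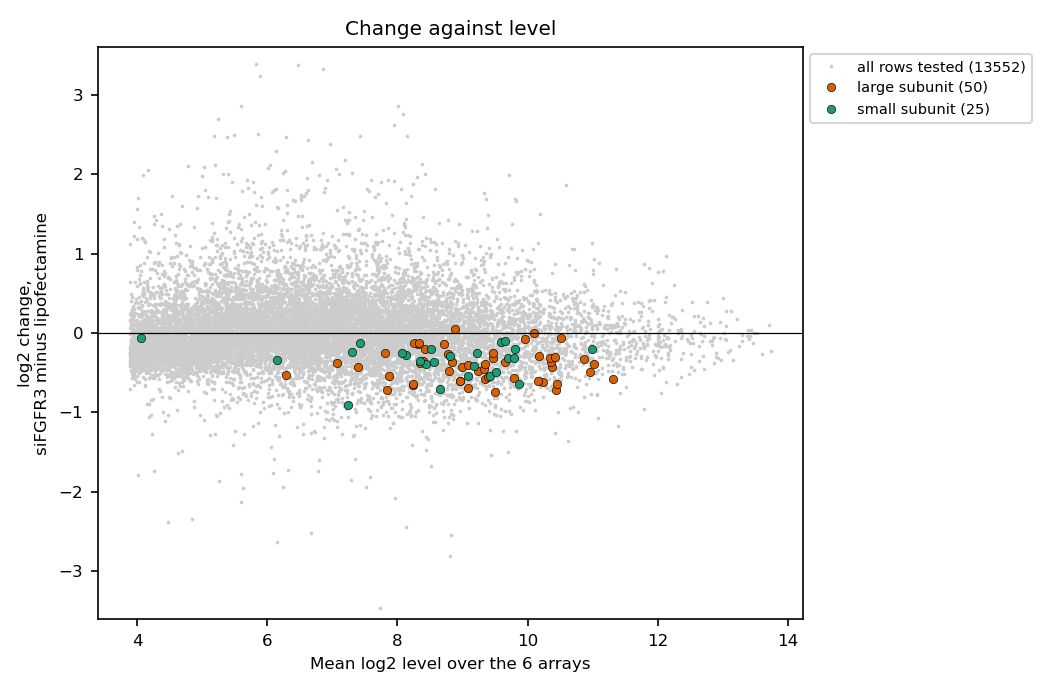
Change on the log2 scale against the mean log2 level over the 6 arrays. Grey points are all 13552 rows tested, and coloured points are the 50 large and 25 small subunit members, of which 74 lie below 0.

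In the large subunit, 41 of 50 tested members fell and 9 did not pass, where 24.6% of all rows were lower. MRPL37, a protein found in mitochondrial but not bacterial ribosomes, was at 9.28, 8.83 and 9.27 in the siFGFR3#35, siFGFR3#36 and siFGFR3#3 arrays, against 9.86, 9.91 and 9.86 in the lipofectamine arrays. It fell by 0.75 (SE 0.12, adjusted p = 0.00335), and the siFGFR3#36 array was the lowest. MRPL35, a relative of bacterial L35, was at 7.34, 7.26 and 7.84 with the siRNAs in the same order, against 8.18, 8.19 and 8.22 with lipofectamine. The groups did not overlap, the siFGFR3#3 array was nearest to the controls, and the gene fell by 0.71 (SE 0.15, adjusted p = 0.00816). MRPL42, another mitochondria-specific protein, was at 8.85, 8.43 and 8.96 in siFGFR3 cells and at 9.45, 9.46 and 9.40 in lipofectamine cells. Its siFGFR3#36 array lay lowest, and it fell by 0.69 (SE 0.13, adjusted p = 0.00626). For MRPL50, also specific to mitochondria, the siFGFR3 levels were 7.69, 8.10 and 7.96, against 8.60, 8.39 and 8.71 in lipofectamine cells. Here the siFGFR3#35 array was the lowest and the groups did not overlap, and MRPL50 fell by 0.65 (SE 0.12, adjusted p = 0.00646). MRPL4, whose bacterial counterpart lines the exit tunnel of the nascent chain, averaged 7.91 ± 0.19 in siFGFR3 cells and 8.56 ± 0.05 in lipofectamine cells (SD, n = 3 each), and fell by 0.65 (SE 0.10, adjusted p = 0.00297).

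The stalk of the large subunit, which recruits translation factors, is built from MRPL12 on MRPL10 beside MRPL11, and 2 of these 3 fell. MRPL12 was at 9.89, 10.32 and 10.04 in the siFGFR3#35, siFGFR3#36 and siFGFR3#3 arrays, against 10.84, 10.81 and 10.75 in the lipofectamine arrays. Every siFGFR3 array was below every lipofectamine array, and MRPL12 fell by 0.72 (SE 0.11, adjusted p = 0.00249). MRPL11 was at 8.99, 9.07 and 8.94 with the siRNAs, against 9.53, 9.48 and 9.42 with the reagent. It too separated the groups and fell by 0.48 (SE 0.06, adjusted p = 0.00159). MRPL10, the anchor of the stalk, was at 8.86, 8.58 and 8.52 in siFGFR3 cells and 8.80, 8.81 and 8.76 in lipofectamine cells. Its siFGFR3#35 array was above all 3 lipofectamine arrays while the other two were below them, and its change of −0.14 did not pass (adjusted p = 0.26). Without siFGFR3#35 the change of MRPL10 was −0.24 and passed (adjusted p = 0.0167).

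Among other members of the large subunit, MRPL3, a core protein whose bacterial counterpart reaches toward the peptidyl transferase centre, averaged 11.02 ± 0.15 in siFGFR3 cells and 11.60 ± 0.02 in lipofectamine cells (SD, n = 3 each), a change of −0.58 (adjusted p = 0.00165). MRPL36, which as in bacteria is among the smallest ribosomal proteins, was at 10.06, 10.22 and 10.09 in siFGFR3 cells, against 10.75, 10.77 and 10.79 in lipofectamine cells, and had the smallest adjusted p of all members (0.000587, change −0.64, SE 0.06). MRPL58, a peptidyl-tRNA hydrolase related to release factors that became a ribosomal protein, was at 8.5, 8.78 and 8.71 in siFGFR3 cells and 9.32, 9.28 and 9.22 in lipofectamine cells, a change of −0.61 (adjusted p = 0.00208). In each of these the groups did not overlap, and they are named for values already seen. The other members of the large subunit that fell did so by 0.21 to 0.62, with adjusted p-values up to 0.0347. MRPL45, which is placed near the exit tunnel and the inner membrane, had the smallest of these falls.

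MRPS30 and MRPS18A carry names of the small subunit, but structures of the human ribosome place both in the large subunit (mL65 and mL66), where they are counted here. MRPS30 fell by 0.43 (SE 0.06, adjusted p = 0.00159). The S18 family has 3 human members, of which MRPS18C and MRPS18B sit in the small subunit. MRPS18A was at 8.20, 8.34 and 8.13 in the siFGFR3 arrays, against 8.59, 8.61 and 8.54 in the lipofectamine arrays, and fell by 0.35 (SE 0.07, adjusted p = 0.00763). MRPS18B was at 8.44, 8.44 and 8.38 in siFGFR3 cells, against 8.64, 8.64 and 8.58 in lipofectamine cells, with no overlap, and fell by 0.20 (SE 0.06, adjusted p = 0.0246). MRPS18C was at 4.26, 3.94 and 3.89 in siFGFR3 cells and 4.16, 4.09 and 4.03 in lipofectamine cells, near the limit of 3.89 below which rows were left out, and its arrays overlapped (−0.06, adjusted p = 0.666). The call for MRPS18B was lost without any 1 of the lipofectamine arrays (adjusted p = 0.0619 to 0.105).

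In the small subunit, 18 of 25 tested members fell and 7 did not pass, where 24.6% of all rows were lower. Without lipofectamine replicate 2, 11 members of the small subunit fell, and 14.7% of all rows were lower in that fit. MRPS12, which as in bacteria lies at the decoding centre, had the largest fall of all members. It was at 6.70, 7.0 and 6.65 in the siFGFR3#35, siFGFR3#36 and siFGFR3#3 arrays, against 7.65, 7.80 and 7.63 in the lipofectamine arrays. All siFGFR3 arrays lay below all lipofectamine arrays, and MRPS12 fell by 0.91 (SE 0.11, adjusted p = 0.00126). MRPS2 was at 8.37, 8.58 and 7.97 with the siRNAs and 8.99, 9.03 and 9.0 with the reagent, the siFGFR3#3 array being the lowest, and fell by 0.70 (SE 0.14, adjusted p = 0.00818). MRPS15 was at 9.59, 9.48 and 9.59 in siFGFR3 cells, against 10.13, 10.20 and 10.23 in lipofectamine cells. Its siFGFR3 arrays lay close together and below every lipofectamine array, and the gene fell by 0.64 (SE 0.06, adjusted p = 0.000616). MRPS17, another relative of a bacterial protein, averaged 8.81 ± 0.11 in siFGFR3 cells and 9.35 ± 0.02 in lipofectamine cells (SD, n = 3 each), a change of −0.54 (adjusted p = 0.00146). The mitochondria-specific MRPS23 and MRPS35 changed by −0.54 (adjusted p = 0.00387) and −0.49 (adjusted p = 0.00101), with all siFGFR3 arrays below all lipofectamine arrays in both. The remaining 12 members of this subunit that fell changed by −0.42 to −0.20.

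Of the 16 members that did not pass, 15 had a change below 0 and 1 above it, and in 4 of them the arrays still did not overlap. Farthest from passing were MRPL33, MRPL53 and MRPL54 in the large subunit and MRPS18C, MRPS14 and MRPS21 in the small one. MRPL33 was at 10.12, 10.04 and 10.13 in the siFGFR3 arrays and 10.15, 10.09 and 10.05 in the lipofectamine arrays, a change of −0.0035 (adjusted p = 0.962). For MRPL54, a mitochondria-specific protein, the levels were 8.96, 8.93 and 8.86 with the siRNAs and 8.81, 8.90 and 8.88 with the reagent, and the change was 0.05 (adjusted p = 0.51). MRPL53 was at 10.55, 10.33 and 10.57 in siFGFR3 cells, against 10.55, 10.54 and 10.53 in lipofectamine cells, and only its siFGFR3#36 array lay below the controls (−0.06, adjusted p = 0.53). MRPS21 was at 9.66, 9.47 and 9.48 in siFGFR3 cells, against 9.65, 9.61 and 9.68 in lipofectamine cells, with overlap (−0.11, adjusted p = 0.212), and its change was −0.17 and passed without siFGFR3#35 (adjusted p = 0.0335). The others, named after their values were seen, were MRPL28, MRPL38, MRPL43, MRPL44, MRPL49, MRPS6, MRPS11, MRPS28 and MRPS33, with changes of −0.25 to −0.08. MRPL39 was the 1 member left out as dim. Its levels were 3.42, 3.55 and 3.71 in the siFGFR3 arrays, all below the limit of 3.89, and 4.02, 3.98 and 4.07 in the lipofectamine arrays. With all rows tested MRPL39 changed by −0.46 (SE 0.09, adjusted p = 0.00892). Some members have pseudogene copies in the genome, and whether the probes of a row also match such copies was not tested.

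The second comparison set the large subunit against the small subunit. The median change was −0.40 among the 50 members of the large subunit, with the middle 50% between −0.57 and −0.29. Among the 25 members of the small subunit it was −0.31, with the middle 50% between −0.42 and −0.21. The difference between the medians was −0.09. In all, 82% of the large and 72% of the small subunit members fell, beside 24.6% of all rows. Members are not replicates, so no p-value is given for the difference between subunits. The mean changes were −0.41 and −0.34. The median lipofectamine level was 9.51 for the large and 9.01 for the small subunit, and what level adds to the difference was not tested. By array, the median change of the large subunit from the lipofectamine mean was −0.46, −0.34 and −0.44 with siFGFR3#35, siFGFR3#36 and siFGFR3#3. That of the small subunit was −0.38, −0.30 and −0.32. The difference, large minus small, was −0.08, −0.04 and −0.13 in the siFGFR3 arrays. In the lipofectamine arrays it was −0.003, −0.003 and 0.007. These values are held near 0 because the mean of the same arrays was subtracted, so they are no measure of spread for the siFGFR3 arrays. By medians, the difference was below 0 with each siRNA and smallest in size with siFGFR3#36. Without that array the medians differed by −0.15 in place of −0.09. By means, the difference was −0.11, −0.03 and −0.05 with siFGFR3#35, siFGFR3#36 and siFGFR3#3. It was thus largest in size with siFGFR3#35 by means and with siFGFR3#3 by medians.

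**Figure D3:**
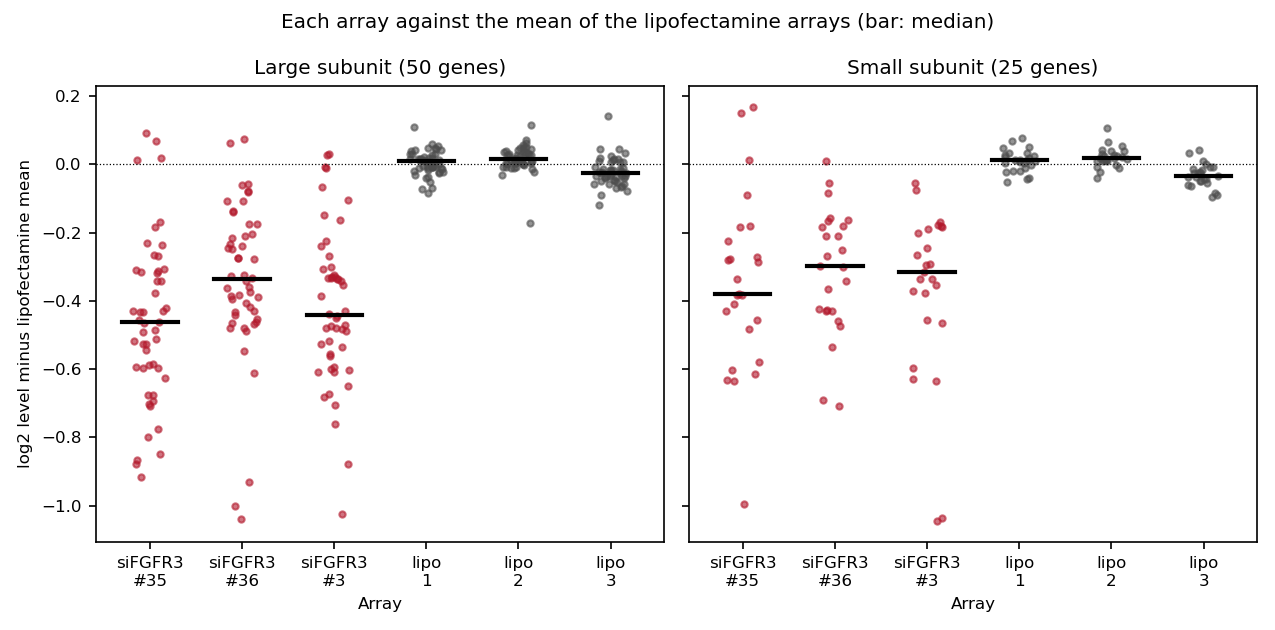
Level of each tested member in each array, minus its mean over the lipofectamine arrays, on the log2 scale, for the 50 large subunit genes on the left and the 25 small subunit genes on the right. Points are genes and bars are medians, and the medians of the siFGFR3 arrays lie between −0.46 and −0.30 while those of the lipofectamine arrays lie between −0.03 and 0.02. The lipofectamine arrays are held near 0 because their own mean was subtracted.

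The members were also classed by systematic name, as relatives of bacterial proteins or as mitochondria-specific. MRPS18A (mL66) and MRPS18B (mS40) count as mitochondria-specific by this rule, although they belong to the S18 family. The shares that fell ran in opposite order in the subunits, while the mean changes ran in the same order. Over all rows 24.6% were lower. In the large subunit 27 of 30 relatives of bacterial proteins fell (90%, median −0.47), against 14 of 20 mitochondria-specific proteins (70%, median −0.31). In the small subunit 9 of 15 relatives of bacterial proteins fell (60%, median −0.31), against 9 of 10 mitochondria-specific proteins (90%, median −0.31). Over both subunits, 36 of 45 relatives of bacterial proteins fell (80%) and 23 of 30 mitochondria-specific proteins (76.7%). The mean changes, relatives of bacterial proteins first, were −0.45 and −0.34 in the large subunit and −0.36 and −0.32 in the small one. In the small subunit the medians of the classes were alike. The median SD of the siFGFR3 arrays there was 0.121 for relatives of bacterial proteins and 0.051 for mitochondria-specific proteins. The difference between these classes was not tested.

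The third comparison set each siRNA against the 3 lipofectamine arrays, fitted in limma with 4 levels. Each siRNA then rests on 1 array, and the error comes from the lipofectamine arrays alone. The median SD of a member was 0.121 in the siFGFR3 group and 0.0365 in the lipofectamine group, so these calls do not cover the spread among cells given an siRNA. With siFGFR3#35, 67 of 75 members were lower and 1 higher, where 30.3% of all rows were lower and 30.4% higher. With siFGFR3#36, 62 were lower and 0 higher, beside 26.8% and 22.7% of all rows. With siFGFR3#3, 65 were lower and 0 higher, beside 30.3% and 29.9% of all rows. The median member changed by −0.43, −0.33 and −0.35 with these siRNAs in turn, while FGFR3 was at 41.7%, 33.3% and 82.2% of its lipofectamine level. With 1 array per siRNA, and with medians as close as −0.33 and −0.35, an order of the siRNAs by the members is not established. A relation between the change of the members and the level of FGFR3 was not tested. The 3 comparisons share their controls.

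The siRNAs were also set against each other, with 1 array each. Against the mean of the other siRNAs, siFGFR3#3 was lower in 6 members and higher in 6 of 75, while 8.54% of all rows were lower and 9.88% higher in that contrast, so the members' shares were near the background. The values that follow are descriptions, since the genes were named for their range over the siRNAs or for their change. MRPL24 had the widest range over the siRNAs. It was at 10.10, 10.17 and 9.53 with siFGFR3#35, siFGFR3#36 and siFGFR3#3, against 10.66, 10.56 and 10.43 with lipofectamine, and siFGFR3#3 minus the mean of siFGFR3#35 and siFGFR3#36 was −0.61. The same difference was −0.51 in MRPS2 and 0.54 in MRPL35. The fall of MRPL24 over all siRNAs (−0.62, SE 0.17, adjusted p = 0.0215) was lost without any 1 of the lipofectamine arrays (adjusted p = 0.0509 to 0.0759). MRPS14, a small subunit protein, was at 7.64, 7.03 and 7.42 in the siFGFR3 arrays in the same order, against 7.53, 7.49 and 7.46 in the lipofectamine arrays. Against the lipofectamine mean MRPS14 differed by 0.15, −0.46 and −0.08 with siFGFR3#35, siFGFR3#36 and siFGFR3#3, and over all siRNAs its change of −0.13 did not pass (adjusted p = 0.49).

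The genes of the family lie on 21 chromosomes, with at most 8 on any 1, and some share a start region with another gene that runs the opposite way. Of 68 members with an annotated start in RefSeq (GRCh38.p14), 25 had such a head-to-head neighbour within 1000 bases. The share of all genes with such a neighbour was not counted, so this is not shown to be particular to the family. MRPL46 and MRPS11 face each other. For 18 pairs of a member and a gene outside the family both genes were tested. The neighbour was lower in 8 of these (44.4%), higher in 1 and did not pass in 9, beside 24.6% lower over all rows. In 15 pairs the member fell, and there the neighbour fell in 7 and did not pass in 8. No pair passed in opposite directions (0 of 18).

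MRPS12 shares its start region with SARS2, the mitochondrial seryl-tRNA synthetase, whose start lies 181 bases away. SARS2 was at 6.74, 6.71 and 6.74 in the siFGFR3#35, siFGFR3#36 and siFGFR3#3 arrays, against 6.80, 6.85 and 6.71 in the lipofectamine arrays. Its groups overlapped and it changed by −0.06 (SE 0.07, adjusted p = 0.51), beside −0.91 for MRPS12. PIERCE1, a ciliary microtubule protein head to head with MRPS2, changed by −0.06 (adjusted p = 0.476), beside −0.70 for MRPS2. ZNF189, a zinc finger protein beside MRPL50, changed by 0.22 (adjusted p = 0.228), and it was higher without siFGFR3#36 (0.37, adjusted p = 0.00658). CYB5RL, a reductase beside MRPL37, changed by −0.22 (adjusted p = 0.0402), a call that was lost without any 1 of the 6 arrays (adjusted p = 0.0506 to 0.136). Pairs that fell together, named after their values were seen, included MRPL18 (−0.49) with the chaperonin subunit TCP1 (−0.69), MRPL57 (−0.31) with the kinetochore protein SKA3 (−1.04) and MRPS27 (−0.35) with the mitochondrial RNA-binding protein PTCD2 (−0.59).

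**Figure D4:**
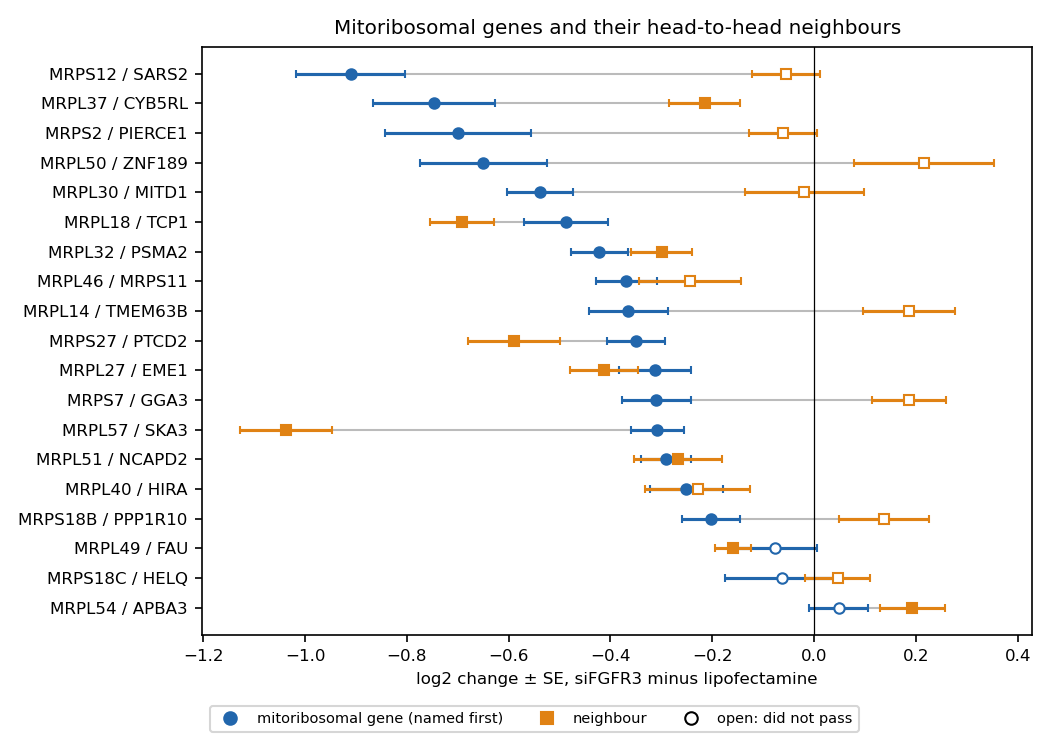
Change on the log2 scale with SE, siFGFR3 minus lipofectamine, of members (blue circles, named first) and their head-to-head neighbours within 1000 bases (orange squares). It holds 18 pairs with a gene outside the family and the pair MRPL46 and MRPS11, and open symbols did not pass. For MRPS12, MRPS2, MRPL50, MRPL30, MRPL14 and MRPS7, among others, the member lies left of a neighbour that did not pass.

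The start regions of some members toward both ends of the range are shown, to set members that fell beside members that did not pass. Each runs from 250 bases before to 30 bases after a start annotated by RefSeq in GRCh38.p14, 5′ to 3′ on the strand of the gene. MRPS12 (chr19:38930694-38930973, plus strand), MRPL37 (chr1:54199917-54200196, plus strand) and MRPS2 (chr9:135499715-135499994, plus strand) fell, and each has a head-to-head neighbour, named above. MRPL54 (chr19:3762432-3762711, plus strand), MRPL53 (chr2:74472651-74472930, minus strand) and MRPL33 (chr2:27771469-27771748, plus strand) did not pass. MRPL54 has head-to-head neighbours too, LOC105372248, which was not analysed here, at 42 bases and APBA3 at 990 bases (0.19, adjusted p = 0.0451). MRPL12 (−0.72) and MRPL35 (−0.71) fell by more than MRPS2, but their start regions are not shown. Capitals mark the letters CCGGAAG of ETS factors or, on the other strand, CTTCCGG, and the E-box letters CACGTG, which read alike on both strands.
MRPS12: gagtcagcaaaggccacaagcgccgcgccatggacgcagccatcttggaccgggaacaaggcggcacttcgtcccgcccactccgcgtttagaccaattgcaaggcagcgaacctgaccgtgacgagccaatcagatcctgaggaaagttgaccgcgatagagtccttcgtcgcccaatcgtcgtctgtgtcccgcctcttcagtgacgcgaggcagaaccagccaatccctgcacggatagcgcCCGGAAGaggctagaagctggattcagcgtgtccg
MRPL37: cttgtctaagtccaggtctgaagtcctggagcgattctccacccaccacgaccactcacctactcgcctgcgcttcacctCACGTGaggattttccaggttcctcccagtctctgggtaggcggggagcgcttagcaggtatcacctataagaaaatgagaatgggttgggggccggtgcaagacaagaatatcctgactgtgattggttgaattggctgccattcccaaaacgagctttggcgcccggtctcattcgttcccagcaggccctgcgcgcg
MRPS2: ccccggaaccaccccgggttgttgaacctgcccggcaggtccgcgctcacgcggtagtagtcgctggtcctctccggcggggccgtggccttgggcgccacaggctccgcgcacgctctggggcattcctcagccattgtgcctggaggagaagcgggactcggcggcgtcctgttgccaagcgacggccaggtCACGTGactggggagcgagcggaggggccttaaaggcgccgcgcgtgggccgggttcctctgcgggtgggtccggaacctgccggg
MRPL54: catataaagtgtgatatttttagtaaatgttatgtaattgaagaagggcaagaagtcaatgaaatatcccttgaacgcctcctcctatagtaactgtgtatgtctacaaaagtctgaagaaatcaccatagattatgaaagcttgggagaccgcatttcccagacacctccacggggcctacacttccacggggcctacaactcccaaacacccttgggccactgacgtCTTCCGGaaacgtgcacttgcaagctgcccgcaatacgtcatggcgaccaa
MRPL53: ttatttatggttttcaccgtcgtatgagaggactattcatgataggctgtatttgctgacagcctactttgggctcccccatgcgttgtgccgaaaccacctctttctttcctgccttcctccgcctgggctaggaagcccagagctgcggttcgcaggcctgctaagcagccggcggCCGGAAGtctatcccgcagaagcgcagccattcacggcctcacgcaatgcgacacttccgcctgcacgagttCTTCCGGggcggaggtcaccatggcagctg
MRPL33: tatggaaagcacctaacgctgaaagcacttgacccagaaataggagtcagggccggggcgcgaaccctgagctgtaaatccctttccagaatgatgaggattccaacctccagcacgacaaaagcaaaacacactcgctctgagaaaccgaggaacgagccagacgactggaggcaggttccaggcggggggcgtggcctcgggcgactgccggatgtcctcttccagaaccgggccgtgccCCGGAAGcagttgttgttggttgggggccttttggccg

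Across the family, 4 short letter strings were searched on both strands, from 250 bases before to 50 after each start, and none contains another. The ETS letters CCGGAAG were found at 30 of 68 members (44.1%), against 20.9% of the genes of tested rows and 12.2% of all genes with a start region. The YY1 letters AAGATGGCG were found at 12 members (17.6%), against 4.4% and 2.14%. The E-box letters CACGTG stood at 9 members (13.2%), against 12.4% and 8.77%, and the NRF1 letters GCGCATGC at 6 members (8.82%), against 6.17% and 3.68%. Of the 53 members that fell and had a start region, 21 held the ETS letters (39.6%), and of the 14 that were tested and did not fall, 9 did (64.3%). The YY1 letters went the other way, at 11 (20.8%) and 1 (7.14%). For the E-box letters the counts were 6 (11.3%) and 3 (21.4%), and for the NRF1 letters 5 (9.43%) and 1 (7.14%). These differences were not tested. In the 6 regions above, the ETS letters stand once in MRPS12, MRPL54 and MRPL33 and on both strands in MRPL53, and the E-box letters stand in MRPL37 and MRPS2. The start region of MRPL12, which fell by more than MRPS2 and is not shown, held none of the 4 strings. A match of letters is a description and does not show binding.

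Genes that act with the mitochondrial ribosome were described by the same fit, in which 24.6% of all rows were lower and 20.6% higher. Of 4 tested proteins of the ribosome with other symbols, 2 fell: DAP3, a GTP-binding protein of the small subunit (−0.44, adjusted p = 0.00105), and GADD45GIP1 of the large subunit (−0.53, adjusted p = 0.00786). CHCHD1 and PTCD3, both of the small subunit, changed by −0.07 and 0.02. Of 14 translation factors, 9 fell (64.3%), 1 rose and 4 did not pass (median −0.38). LRPPRC and SLIRP, which together stabilise mitochondrial messages, changed by −0.41 (adjusted p = 0.00195) and −0.68 (adjusted p = 0.00246). The initiation factor MTIF3, the 1 member of that list that rose, changed by 0.36 (adjusted p = 0.00289), and its partner MTIF2 by −0.44.

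Of 27 tested assembly factors, which modify the ribosomal RNA or join the subunits, 12 fell (44.4%, beside 24.6% of all rows), 1 rose and 14 did not pass (median −0.17). C1QBP, a matrix protein needed for mitochondrial translation, was at 10.11, 10.41 and 10.03 in the siFGFR3 arrays, against 11.14, 11.16 and 11.09 in the lipofectamine arrays. Its groups did not overlap, and it fell by 0.95 (SE 0.10, adjusted p = 0.000842). MALSU1, an assembly factor of the large subunit, changed by −0.39 (adjusted p = 0.00195), and the pseudouridine synthase RPUSD3 was the gene that rose (0.28). Of 18 mitochondrial tRNA synthetases, 11 fell (61.1%), 0 rose and 7 did not pass (median −0.24), among them MARS2, which charges methionine (−0.90, adjusted p = 0.00152), and GARS1, which serves both cytosol and mitochondria (−0.56, adjusted p = 0.000734). Of 12 genes of mitochondrial transcription and RNA processing, 8 fell (66.7%), 0 rose and 4 did not pass (median −0.47), among them ELAC2, which trims tRNA precursors (−0.56, adjusted p = 0.00107), and the transcription factor TFB2M (−0.64, adjusted p = 0.00119). Of 11 regulators of mitochondrial biogenesis, 5 fell (45.5%), 1 rose and 5 did not pass (median −0.19). MYC changed by −0.46 (adjusted p = 0.00202) and the coactivator PPRC1 by −0.69 (adjusted p = 0.0064).

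The respiratory chain and ATP synthase, whose mitochondrially encoded subunits this ribosome makes, and the cytosolic ribosome had smaller shares that fell. Over all rows 24.6% were lower and 20.6% higher. Of 66 nuclear subunits of the chain and of ATP synthase, 19 fell (28.8%), 5 rose and 42 did not pass, with a median of −0.07. NDUFB9 of complex I changed by −0.57 (adjusted p = 0.000533) and ATP5MC1 of ATP synthase by −0.60 (adjusted p = 0.00174). The cytosolic ribosome was represented by 30 tested proteins, of which 10 fell (33.3%), 20 did not pass and 0 rose, with a median of −0.07. RPL27A, at 3.79, 4.02 and 3.81 in the siFGFR3 arrays and 4.94, 5.04 and 4.96 in the lipofectamine arrays, changed by −1.11 (adjusted p = 0.000473), with 2 of its siFGFR3 arrays below the limit for dim rows, and RPL8 changed by −0.26 (adjusted p = 0.00217). The shares of both lists stood nearer to the 24.6% of all rows than did the 78.7% of the mitochondrial ribosomal proteins. The lists also differed in level. The median lipofectamine level was 12.60 for the cytosolic ribosome and 10.5 for the respiratory chain, against 9.35 for the members. What these levels add to the shares was not tested. The difference between lists was not tested, and the genes of mitochondrial DNA were not analysed here.

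**Figure D5:**
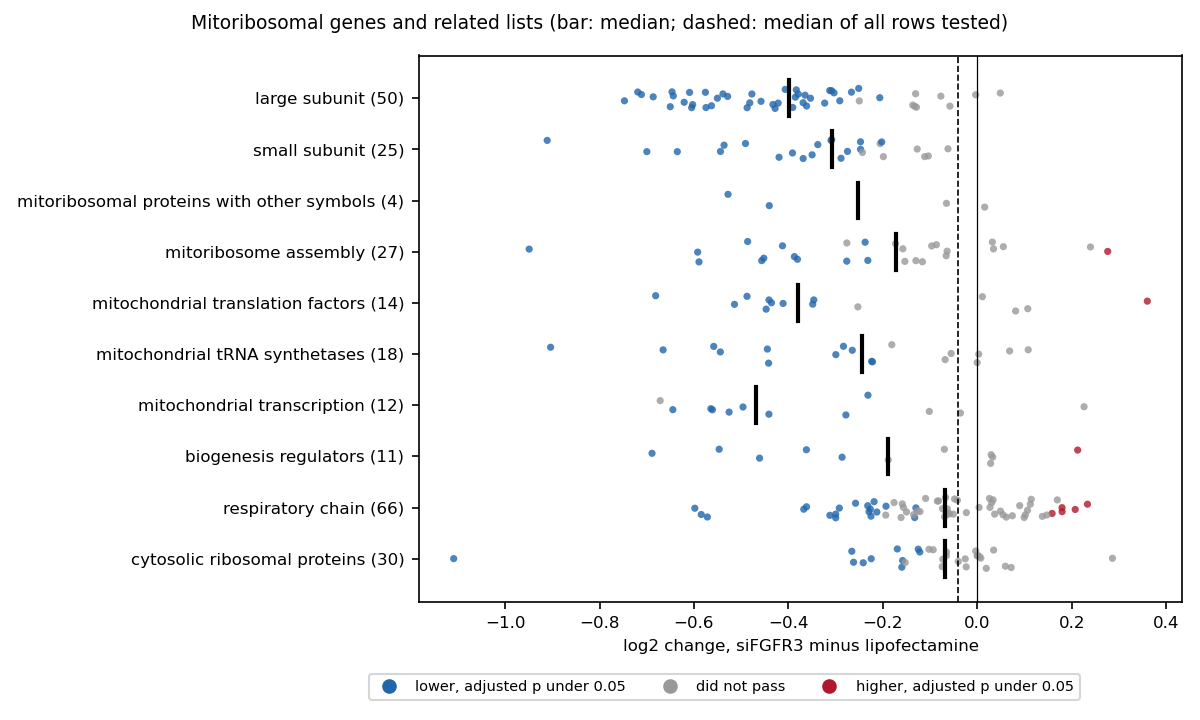
Change of each tested gene on the log2 scale, siFGFR3 minus lipofectamine, in the subunits and in related lists, with the number tested in brackets. Blue points are lower and red points higher at an adjusted p under 0.05, bars are medians, and the dashed line is the median of all rows, −0.04. The medians of the subunits are −0.40 and −0.31, and those of the respiratory chain and the cytosolic ribosome are both −0.07.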

How the data were processed

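The table deposited by the authors holds log2 expression values. RMA and the affy package made them, as the submitters' processing notes record without versions, and the genome build and annotation are not given in the sources used here. RMA equalises the distributions of the arrays, so a shift shared by most genes would be reduced. Rows are Entrez gene IDs, 1 per gene, and 18669 of the 19361 rows had a symbol (RefSeq, GRCh38.p14). The 100 ng of RNA per sample was amplified and labelled, per the labels' protocols. Arrays have no depth, and their number limits the precision.

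The 30% of rows with the lowest mean were left out, and 13552 remained. The groups were compared in limma 3.58.1 (R 4.3.3, variance trend, two-sided), with p-values adjusted by Benjamini-Hochberg over these rows and a threshold of 0.05. With 3 arrays against 3, an exact permutation test cannot give a p below 0.1. The procedure was tested on simulated data in which both groups had the same SD for each gene. Over all rows tested, the median SD was 0.129 in the siFGFR3 and 0.054 in the lipofectamine arrays. The simulation therefore did not cover this unequal spread. Figures were drawn in Python 3.11.15.

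The members and lists were chosen with earlier results of these data known. Named were FGFR3, in each subunit the 6 largest falls and rises that passed and the 3 largest adjusted p-values, dim members, the stalk, the S18 family, the 3 widest ranges over siRNAs, the 2 smallest adjusted p-values of each related list, and 4 neighbour pairs. The subunit is that of the assembled ribosome. Alternatives were array centring, other dim filters and variance models, array weights, leaving out each array, and subunits by symbol. The window of levels was added after the data were seen.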

Additional observations from a re-analysis of the deposited data

How the results depend on the processing

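The count of members that fell stayed within 1.5 times of 59 under every alternative run, at 58 to 61 with other filters, variance models, weights or centring and at 43 to 63 with 1 array left out. The count that rose was 0 in each of these limma fits. Over all rows, the share that was lower moved too, from 24.6% to 14.6% to 14.7% without any 1 lipofectamine array. It was 20.3% to 27.1% without any 1 siFGFR3 array and 19.8% to 31.6% with other filters, variance models, weights or centring. In the small subunit 18 members fell, and 11 to 21 with 1 array left out, with 11 without lipofectamine replicate 2. With arrays centred on their median the small subunit's median change was −0.37 in place of −0.31, the large subunit's −0.46 in place of −0.40, and over all rows 4285 were lower and 2312 higher in place of 3329 and 2789. The difference between the medians of large and small subunit was −0.09, and ranged from −0.15 to −0.085 with 1 array left out. FGFR3 changed by −1.42 to −0.77 with 1 array left out, and its fall did not pass without lipofectamine replicate 1, 2 or 3 (−1.06, −1.03 and −1.04) or siFGFR3#35 (−0.93). Of 23 named members tested, MRPL24 and MRPS18B lost their calls without any 1 lipofectamine array, and MRPL10 and MRPS21 gained theirs without siFGFR3#35. Counts by siRNA moved by at most 5 with centring, and with limits of 500 or 2000 bases 7 or 9 neighbours were lower in place of 8. No paired analysis was possible because the numbers on the siFGFR3 arrays name the siRNAs and pair no array with a lipofectamine array.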
